A study of Rattus norvegicus with 4 samples.

Results

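The genes of the proteasome, the protease that degrades ubiquitin-tagged proteins, were compared between eye and retina of the rat. Members were all genes whose symbol in the deposited tables was Psma, Psmb, Psmc, Psmd, Psme or Psmg followed only by a number, without the immunoproteasome genes Psmb8, Psmb9 and Psmb10. This gave 41 of 14485 gene names, none of them with a missing value. Ocular tissue came from Long Evans rats, a strain with pigmented eyes, of genotype Wild Type. The RNA was sequenced, and the groups were eye and retina, with RNA of 5 rats pooled for each library. The labels name no treatment and no age, and they list 2 technical replicates for each tissue. One column of values was analysed per tissue, called its library here, so no difference has a replicate check and no p-value is given. All 4 samples carry a description naming retina mRNA, while titles and tissue labels set eye apart from retina, and the libraries are called by their tissue label.

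Values are taken as RPKM, read counts divided by gene length and by library size, a unit inferred from the numbers. The library totals behind them were 28071917 reads for eye and 51944762 for retina. Markers agreed in direction with the tissue labels: of 14 lens genes listed, all 9 with a value were higher in eye, with a summed level of 137442 RPKM against 666 in retina, and of 7 photoreceptor genes listed, all 6 with a value had their higher level in retina, with 18829 against 9731. Summed levels in eye and retina were 4254 and 3.20 RPKM for 3 markers of corneal epithelium, 3101 and 12.4 for 7 of skeletal muscle, and 2176 and 8.42 for 6 of stroma, with none at 0. The part of these cell types in the proteasome ratios was not tested. In bulk tissue, fewer cells of a type and less RNA per cell cannot be told apart. The lens genes alone held 26.3% of the summed RPKM in eye and 0.198% in retina, and equalizing both sums moves every log2 ratio of eye to retina by -0.64. Levels and ratios below are as deposited, and the main counts and medians of gene groups are also given with equal sums.

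The proteasome consists of a barrel-shaped core particle and of regulatory caps. The core stacks rings of alpha subunits, which gate the entrance, on rings of beta subunits, some of which carry the proteolytic sites. The regulatory particle binds ubiquitin chains, removes them and unfolds the substrate with a ring of ATPases, while other caps activate the core without ATP. In a lens fiber cell, which loses its organelles, and in a photoreceptor, which makes large amounts of protein daily, the proteasome is studied as a part of protein quality control.

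As deposited, most proteasome genes had a somewhat higher level in the eye library, and few differed strongly, whereas with equal summed values most were lower there. Of the 41 members, 35 were higher in eye, against 49.3% of the 13259 genes that reached 1 RPKM in either library. With equal summed values, 12 of 41 members were higher in eye, against 23.8% of all genes. These 12 were Psma2, Psma3, Psma4, Psma6, Psmb6, Psmc6, Psmd10, Psmd12, Psme1, Psme2, Psme4 and Psmg2. The median log2 ratio, computed with 0.1 RPKM added to each value, was 0.40, a 1.32-fold higher level in eye, and all genes had a median of -0.01. The difference between these medians, 0.42, was 0.43 with equal sums. All 41 members passed the minimum of 1 RPKM.

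Differences of at least 2-fold were scarce among the members. The 2 members at least 2-fold higher in eye were Psme1 and Psma6, and 0 were at least 2-fold lower, against 17.8% and 7.95% of all genes. At 1.5-fold, 14 were higher and 0 lower, against 26.6% and 21.9%. With equal sums the balance turned, to 1 higher and 7 lower at 1.5-fold, against 14.1% and 54.3% of all genes. The interquartile range of the members' log2 ratios was 0.53, from 0.16 to 0.69, where that of all genes was 1.16. Neither call at 2-fold was made with equal sums, where 10.6% of all genes were called higher and 32.8% lower. When the totals excluded lens genes, 4 members were called higher and 0 lower, with Psme4 and Psmd10 added, against 20.6% and 4.87% of all genes.

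Whole reads, the smallest that fit the values, could be recovered for all 41 members. They ran from 107 to 5751 in eye and from 110 to 12153 in retina. The exact 95% interval of the ratio, which covers counting error only and compares 2 libraries, lay above 1 for 34 members, below 1 for 4 and on both sides of 1 for 3. With equal sums these numbers were 6, 27 and 8. No share of all genes stands beside these counts, so they are not read as particular to the members. The error between animals or between preparations was not measured.

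**Figure D1:**
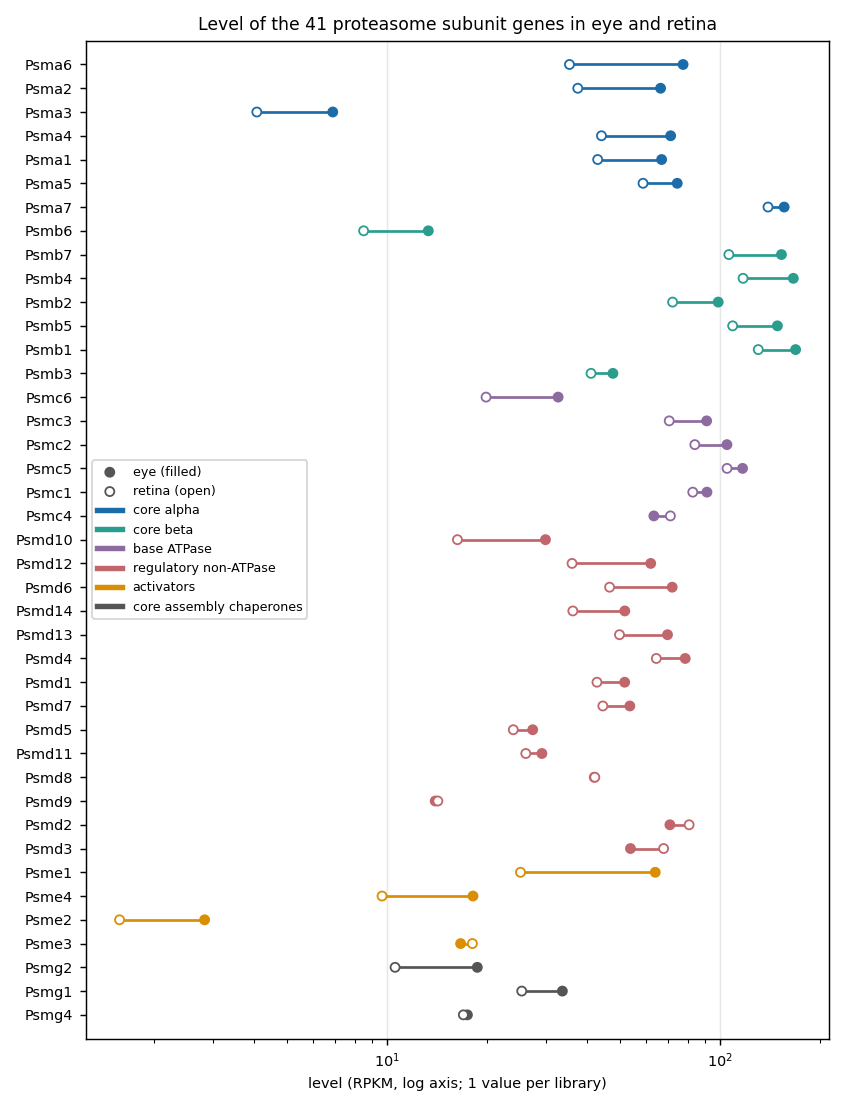
Level in RPKM on a log axis of each of the 41 genes, with filled points for the eye library, open points for the retina library and colours for the role; each point is 1 value. In 35 of 41 genes the eye point lies to the right, while with equal summed values 12 would.

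The alpha subunits were all higher in the eye library as deposited, and 4 of 7 were with equal sums. The shares of all genes were 49.3% and 23.8%. Psma6 was at 77.5 RPKM in eye and 35.3 in retina, 2.19-fold higher (interval 1.96 to 2.45), the only alpha gene past 2-fold. Psma2 followed with 66.3 and 37.4, 1.77-fold, and Psma4 with 71.1 and 44.1, 1.61-fold. Psma1 was at 66.8 and 42.9, a 1.56-fold difference. Thus 5 of 7 alpha genes were at least 1.5-fold higher, Psma3 among them, against 26.6% of all genes. The median log2 ratio of the group was 0.69. With equal sums the median was 0.049, and the largest log2 ratio, that of Psma6, was 0.49, less than 1.5-fold.

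As deposited, Psma7 and Psma5 differed least among the alpha genes. With equal sums Psma1 and Psma4 did, at log2 ratios of -0.003 and 0.049. Psma7 had the highest level of the group, 156 RPKM in eye and 139 in retina, a 1.12-fold difference (interval 1.07 to 1.16). It was the most abundant proteasome gene of the retina library and the third in eye. Psma5 was at 74.4 and 58.7, 1.27-fold. At the low end stood Psma3, with 6.88 RPKM in eye and 4.07 in retina, which is 9.46% and 9.36% of the median of the other alpha genes. Alpha subunits are present in equal numbers in the core, whereas the RPKM of their genes spanned a 22.6-fold range in eye and a 34.2-fold range in retina. Without Psma3, levels ran from 66.3 to 156 in eye and from 35.3 to 139 in retina.

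The beta genes were also all higher in the eye library as deposited, by a narrow range of ratios. With equal sums 1 of 7 was. The shares of all genes were 49.3% and 23.8%. Psmb5, the chymotrypsin-like catalytic subunit, was at 149 RPKM in eye and 109 in retina, 1.36-fold higher (interval 1.30 to 1.42). Psmb7, the trypsin-like subunit, was at 153 and 106, 1.44-fold. The caspase-like subunit Psmb6 was at only 13.3 and 8.52, 1.56-fold higher with an interval from 1.33 to 1.83, and its level was 8.83% of the median of the other beta genes in eye and 7.91% in retina.

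Among the beta subunits without a catalytic site, Psmb1 had the highest level of all members in eye, 169 RPKM against 130 in retina. Psmb4 was at 166 and 117, and Psmb2 at 98.7 and 72.1. Psmb3 differed least of the beta genes as deposited, with 47.7 and 41.0, 1.16-fold. With equal sums it differed most, at a log2 ratio of -0.42. The median log2 ratio of the 7 beta genes was 0.45, and their interquartile range was 0.10. With equal sums the median was -0.19, and Psmb6 was the gene still higher in eye, by a log2 ratio near 0.

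The ATPases at the base of the regulatory particle, which unfold the substrate, were closer to equal as deposited. Psmc6 was at 32.7 RPKM in eye and 19.8 in retina, 1.65-fold higher, and it had the lowest level of the 6 in both libraries. The other 5 lay between 63.3 and 117 in eye and between 70.4 and 105 in retina. Psmc3 and Psmc2 were 1.29-fold and 1.25-fold higher in eye, Psmc5 and Psmc1 1.11-fold and 1.10-fold. Psmc4 went the other way, with 63.3 in eye and 71.0 in retina, a 1.12-fold higher level in retina (interval 1.07 to 1.18). The group's median log2 ratio was 0.24. With equal sums it was -0.40, the lowest of the role groups, and only Psmc6 was higher in eye.

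Non-ATPase genes of the regulatory particle, with its assembly chaperones Psmd5, Psmd9 and Psmd10, differed in direction. Of 14 genes, 10 were higher in eye, against 49.3% of all genes, and 4 in retina. Of these 4, Psmd8 and Psmd9 had intervals that held 1. The median log2 ratio of the 14 genes was 0.27. With equal sums the median was -0.37, and 2 genes were higher in eye, Psmd12 and Psmd10, against 23.8% of all genes. Psmd3, a lid subunit, was at 53.8 RPKM in eye and 67.7 in retina, 1.26-fold higher in retina (interval 1.21 to 1.31), the lowest eye-to-retina ratio of all members. Psmd2, the large base subunit that docks ubiquitin-like shuttle proteins, was at 70.7 and 80.8, 1.14-fold lower. Its partner in the base, Psmd1, was at 51.7 and 42.7, 1.21-fold higher in eye.

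Subunits of the lid did not share one direction. Psmd12 was at 61.9 RPKM in eye and 36.0 in retina, 1.72-fold higher (interval 1.63 to 1.82), and Psmd6 at 71.8 and 46.6, 1.54-fold. Psmd14, the deubiquitinase that cuts ubiquitin chains off the substrate, was at 51.8 and 36.2, 1.43-fold, and its partner Psmd7 at 53.6 and 44.5, 1.21-fold. Psmd13 was at 69.6 and 49.9. Psmd11 was at 29.2 and 26.1, and Psmd8 was nearly equal, at 41.9 and 42.1, with an interval of the ratio from 0.94 to 1.05. Of the 8 lid genes, 6 were higher in eye as deposited and 1 with equal sums, against 49.3% and 23.8% of all genes.

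Psmd4, a receptor for ubiquitin chains, had the highest eye level among the non-ATPase genes, 78.6 RPKM against 64.4 in retina. The genes of assembly chaperones of the regulatory particle were less abundant. Psmd10, also known as gankyrin, was at 29.9 in eye and 16.3 in retina, 1.84-fold higher. The smallest reads that fit were 142 and 143, with an interval from 1.45 to 2.33. They go with a length of 169 bases, the shortest recovered for a member. True reads may be a multiple of these, and the interval is then too wide. Psmd5 was at 27.4 and 24.0. Psmd9 was at 14.0 and 14.2, and its interval, 0.88 to 1.09, held 1.

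Core and regulatory particle can be set side by side. All 14 core genes were higher in eye as deposited, with a median log2 ratio of 0.51. So were 15 of 20 genes of the regulatory particle, its assembly chaperones included, with a median of 0.27. The share of all genes was 49.3%. Summed RPKM of the core genes was 1314 in eye and 946 in retina, 1.39-fold, and that of the regulatory particle 1206 and 1024, 1.18-fold. With equal sums these medians were -0.13 and -0.37. Then 5 of 14 and 3 of 20 genes were higher in eye, against 23.8% of all genes. The difference between the particles was not tested, since each library has 1 value per gene, and the ratios of both groups overlapped widely.

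**Figure D2:**
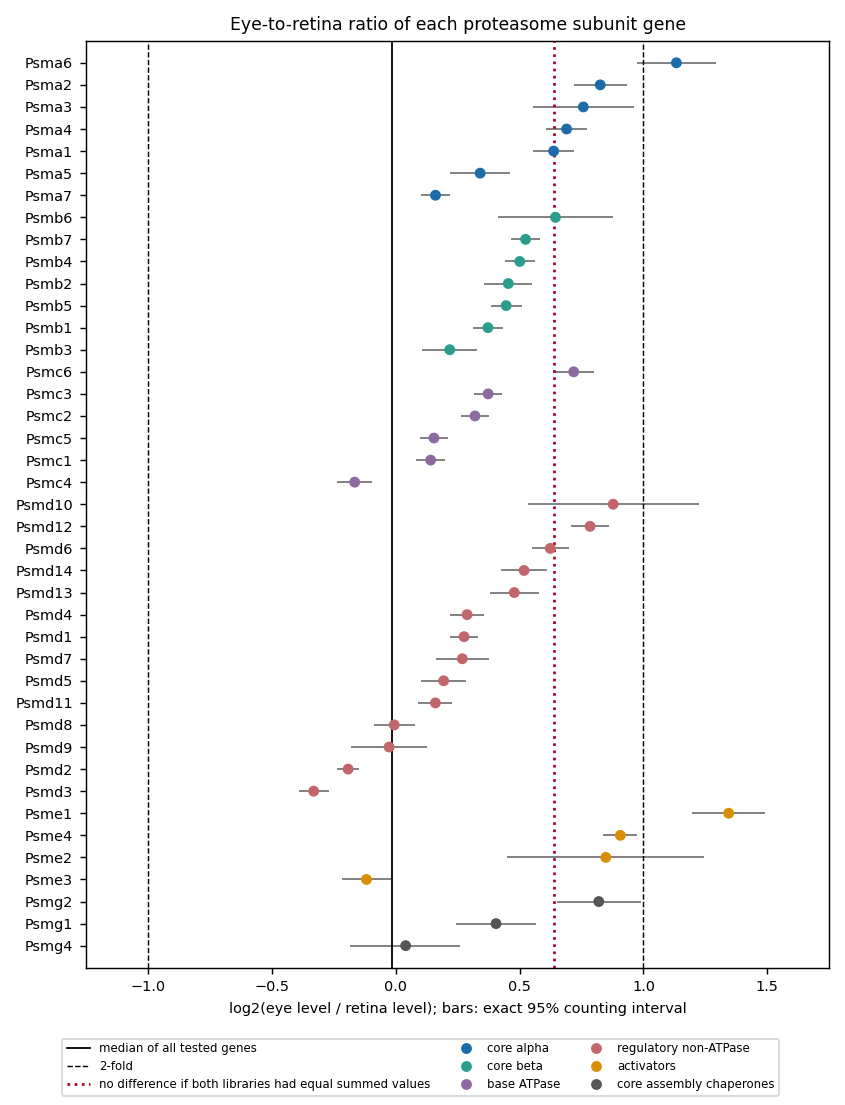
Log2 ratio of the eye to the retina level of each gene, with exact 95% counting intervals as bars; the solid line is the median of all tested genes, the dashed lines mark 2-fold and the dotted line marks no difference with equal summed values. Only Psma6 and Psme1 lie beyond 2-fold, and 29 of 41 genes fall to the left of the dotted line.

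The activator genes held the largest ratio. Psme1, whose product forms with that of Psme2 an interferon-inducible cap on the core, was at 63.9 RPKM in eye and 25.2 in retina, 2.54-fold higher (interval 2.29 to 2.81). On the smallest reads that fit, the Psme1 interval was the only one that lay wholly above 2. That of Psma6, 1.96 to 2.45, is too wide if its true reads are a multiple of those recovered. For Psme2 the levels were just 2.84 and 1.58, 1.80-fold higher (interval 1.37 to 2.37), the lowest level of all members in both libraries. The Psme1 level was thus 22.5 times that of Psme2 in eye and 16.0 times in retina.

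The other activators differed from each other in direction. Psme4, a large cap linked to histone degradation, was at 18.1 RPKM in eye and 9.67 in retina, 1.88-fold higher (interval 1.79 to 1.97). Psme3, a nuclear activator, was at 16.6 and 18.1, 1.08-fold higher in retina (interval 1.01 to 1.16). When the totals excluded lens genes, it was higher in eye. With equal sums, Psme1, Psme4 and Psme2 kept their higher level in eye, and Psme1 had the largest log2 ratio of all members, 0.70.

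Psme1 and Psme2 work with the immunoproteasome, whose catalytic subunits replace those of the core after interferon and which are not members here. All 3 were higher in eye: Psmb8 at 14.2 RPKM against 2.29 (6.23-fold), Psmb9 at 9.95 against 2.51 (3.97-fold) and Psmb10 at 20.3 against 9.46 (2.15-fold). At 2-fold, 17.8% of all genes were higher. With equal sums Psmb8 and Psmb9 were still at least 2-fold higher and Psmb10 was not, against 10.6% of all genes. The level of Psmb8 was 9.58% of that of its constitutive counterpart Psmb5 in eye and 2.10% in retina. For Psmb10 against Psmb7 the shares were 13.3% and 8.90%. Psmb9 reached 74.7% and 29.5% of Psmb6, whose own level was low.

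Immune cell markers were also higher in eye, as were the markers of most other cell types outside the neural retina. Of 8 immune markers, 7 reached 1 RPKM and all 7 were at least 2-fold higher in eye, against 17.8% of all genes. The whole list summed to 174 RPKM in eye and 34.2 in retina. With equal sums 5 of 7 were at least 2-fold higher, without C1qa and C1qb, against 10.6% of all genes. In both scalings, all markers with values of lens, corneal epithelium, skeletal muscle, stroma and pigment cells were at least 2-fold higher. So were 3 of 4 of pigment epithelium, but none of photoreceptor or inner retina. The invariant chain gene Cd74 was at 59.1 and 4.41. Ptprc, a pan-leukocyte gene, was at 0.980 and 0.156, and none of the 8 was at 0 in either library. The part of immune cells in the ratios of Psme1 and the immunoproteasome genes was not tested.

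The chaperones that assemble the core had levels below the median member. They lay above the median of tested genes, 10.1 RPKM in eye and 9.63 in retina. Psmg1 was at 33.6 RPKM in eye and 25.4 in retina, 1.32-fold higher, and its partner Psmg2 at 18.7 and 10.6, 1.77-fold (interval 1.57 to 1.99). Psmg4 was at 17.4 and 17.0, with an interval of the ratio from 0.88 to 1.20. With equal sums Psmg2 alone was higher in eye. Pomp, a core maturation factor outside the members, was at 157 and 81.1, 1.94-fold higher in eye.

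Levels of the members kept nearly the same order in both libraries, with a Spearman rho of 0.92 over 41 genes, against 0.83 over all tested genes, which share gene model and length in both libraries. The median member was at 63.3 RPKM in eye and 42.7 in retina, and 6.89% and 11.7% of tested genes lay above these levels. Some members stood far below their partners in the same particle, namely Psme2, Psma3 and Psmb6, in both libraries alike. All 3 have near copies under their own symbol in a RefSeq gene table of the assembly GRCr8: 3 pseudogenes for Psme2, 2 for Psma3, and 2 pseudogenes and 1 further gene named as like it for Psmb6. Of the 41 members, 19 have such an entry and 22 have none.

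Genes with many listed copies were not all low. Psmb3, with 7 pseudogenes and 3 like genes, was at 47.7 RPKM in eye, and Psma7, with 3 pseudogenes, was near the top. Among the 5 core genes without a listed copy, levels spanned a 2.52-fold range in eye and a 3.03-fold range in retina. Among the 9 with copies the ranges were 24.1-fold and 34.2-fold, but these include Psma3 and Psmb6, picked above for low levels. Without Psma3 and Psmb6, levels ran from 47.7 to 166 RPKM in eye and from 35.3 to 139 in retina. Over all 41 members, the Spearman rho of level and number of copies was -0.24 in eye and -0.27 in retina. How reads that match several places were treated is not stated, so the levels of genes with copies are uncertain, also those of Psme1 and Psma6, and the part of copies in these levels was not tested. Over the 22 members without copies, 0 were called at 2-fold in either direction, against 17.8% of all genes higher and 7.95% lower. Their median log2 ratio was 0.37, or -0.27 with equal sums. In the same table, 11 members overlap another gene, among them Psmb1 (Tbp), Psme1 (Emc9) and Psmc6 (Styx). Their reads may include those of the neighbour, as the use of strand is not stated.

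**Figure D3:**
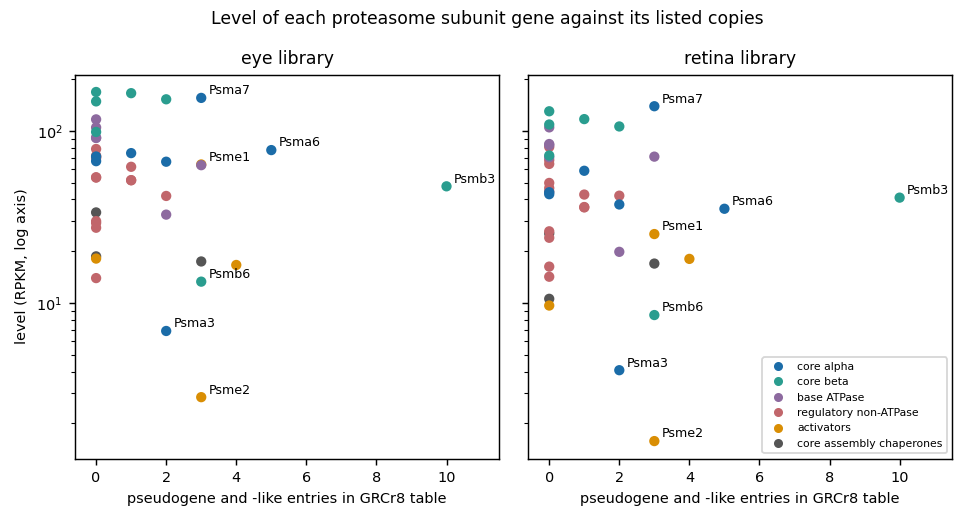
Level in RPKM on a log axis against the number of pseudogenes and like genes listed under the same symbol, for the eye library on the left and the retina library on the right, with 1 point per gene. Psme2, Psma3 and Psmb6 lie lowest among the genes with 2 or 3 entries, while Psmb3 with 10 and Psma7 with 3 entries lie higher.

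Promoters are shown for the members at both ends of the ratio, Psme1 and Psmd3, and for the catalytic gene Psmb5. The windows run from 250 bases before to 50 after the start that RefSeq places on GRCr8, 5′ to 3′, and capitals mark matches on either strand to the motifs searched.
Psme1 (GRCr8 chr15:33038721-33039020, plus strand): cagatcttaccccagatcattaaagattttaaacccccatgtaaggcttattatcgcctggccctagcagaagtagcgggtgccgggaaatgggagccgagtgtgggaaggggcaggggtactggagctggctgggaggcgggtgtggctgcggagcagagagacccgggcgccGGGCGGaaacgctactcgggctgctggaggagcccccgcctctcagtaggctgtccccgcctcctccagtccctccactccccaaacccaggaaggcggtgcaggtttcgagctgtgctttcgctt
Psmb5 (GRCr8 chr15:32047330-32047629, minus strand): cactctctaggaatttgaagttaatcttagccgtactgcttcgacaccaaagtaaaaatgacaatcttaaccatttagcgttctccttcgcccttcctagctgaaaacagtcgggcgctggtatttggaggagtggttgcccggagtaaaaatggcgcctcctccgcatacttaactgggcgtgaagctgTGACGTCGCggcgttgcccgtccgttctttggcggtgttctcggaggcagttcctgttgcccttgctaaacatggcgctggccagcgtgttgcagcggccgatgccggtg
Psmd3 (GRCr8 chr10:84139688-84139987, plus strand): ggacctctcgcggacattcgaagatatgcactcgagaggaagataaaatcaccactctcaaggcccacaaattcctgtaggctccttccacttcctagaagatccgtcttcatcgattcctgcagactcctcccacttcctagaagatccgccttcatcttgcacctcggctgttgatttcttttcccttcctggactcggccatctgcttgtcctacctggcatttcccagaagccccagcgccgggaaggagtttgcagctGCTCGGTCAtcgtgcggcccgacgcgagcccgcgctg

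Motifs were searched on both strands in the windows of the 37 members that matched the table. GGGCGG, the core of the Sp1 box, was found in 28 of 37 (75.7%), in 33.1% of all 33469 windows and in 60.9% of the 10081 windows of tested genes. CCAAT was found in 17 of 37 (45.9%), against 37.5% and 36.6%. TGACNNNGC, the loose form of the antioxidant element that the proteasome regulator Nfe2l1 binds, was found in 8 of 37 (21.6%), against 12.1% and 14.5%. Its strict form TGACTCAGC, which is contained in the loose form, was found in 0 of 37, against 0.415% and 0.427%. The loose form was present in both Psmb5 and Psmd3, which differed in direction as deposited, and absent from Psme1. With equal sums Psmb5 and Psmd3 were both lower in eye, at log2 ratios of -0.19 and -0.97. A match is a run of letters and not evidence of binding.

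Genes that act with the proteasome gave a mixed picture. Of 16 partner genes with values, 1 was at least 2-fold higher in eye and 0 lower, against 17.8% and 7.95% of all genes, with a median log2 ratio of 0.09. That gene was Shfm1, a small lid subunit, at 84.4 RPKM against 37.6 (2.24-fold). It was not called with equal sums, where Ubqln2 was called lower and the median was -0.55. In that scaling 10.6% of all genes were called higher and 32.8% lower. Ubqln2 shuttles ubiquitinated proteins to the proteasome, and its level was 25.4 in eye against 37.2 in retina. The ubiquitin receptor gene Adrm1 was at 42.9 and 42.2, and Rad23b, a shuttle protein, at 61.0 and 41.0.

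Of 9 regulators of proteasome genes, 2 were at least 2-fold higher in eye and 0 lower, against 17.8% and 7.95% of all genes, so that the higher share is near that of all genes. Nfe2l1 itself was nearly equal, at 37.3 RPKM in eye and 35.0 in retina (interval of the ratio 1.00 to 1.14). Its relative Nfe2l2, of the oxidative stress response, was at 26.0 and 11.6, 2.25-fold higher, and Maff, a small partner of both, at 5.73 and 0.903. Maff alone was called higher with equal sums, where Ddi2 and Mafg were called lower, against 10.6% and 32.8% of all genes. Vcp, the unfoldase that hands substrates to the proteasome, was at 116 and 113.

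Among the 13 tested genes of ubiquitin and its activation, 12 were higher in eye, against 49.3% of all genes, and 2 of them at least 2-fold, a share near the 17.8% of all genes. These were the conjugating enzymes Ube2d3, at 116 RPKM against 56.6, and Ube2k, at 28.1 against 13.9. Uba1, the main activating enzyme, was at 64.8 and 79.1. The median log2 ratio was 0.50. With equal sums it was -0.13, 5 were higher in eye, against 23.8% of all genes, and 0 were called.

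Genes of other large complexes were set beside those of the proteasome. Of 71 tested cytosolic ribosomal protein genes, 43 were at least 2-fold higher in eye and 3 lower, with a median log2 ratio of 1.08. Of 83 tested oxidative phosphorylation genes, 14 were higher and 0 lower, with a median of 0.58. The shares of all genes were 17.8% and 7.95%. With equal sums 7 of 70 ribosomal genes were higher and 5 lower, and 2 and 2 oxidative phosphorylation genes, against 10.6% and 32.8% of all genes. The proteasome median was 0.40, and with equal sums the medians were 0.44, -0.04 and -0.23 in that order. These sets were not tested against each other.

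**Figure D4:**
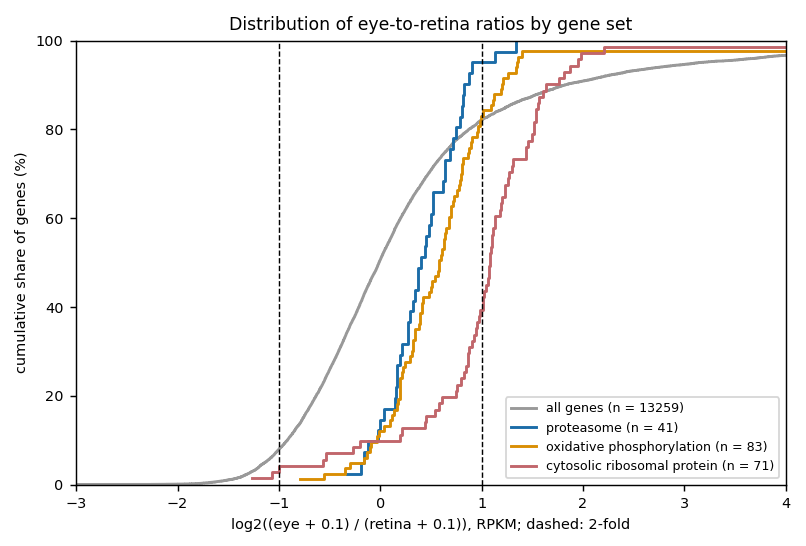
Cumulative share of genes against the log2 ratio of eye to retina, for all tested genes and 3 sets, with dashed lines at 2-fold. The proteasome curve is the steepest, with 2 of 41 genes beyond 2-fold and a median of 0.40, which becomes -0.23 with equal summed values.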

How the data were processed

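RNA of eye and retina was sequenced, per the labels, and the deposited values, 1 column per tissue, are taken here as RPKM, a unit inferred from the numbers, since the labels and headers name none. GSNAP and HTSeq with build rn4 are named in the submitters' processing notes, without versions, settings, annotation or use of strand. Each table held 14533 rows, 7 with ND; of 41 names on several rows the row with more decimals was kept.

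Library totals and reads were recovered from the values with Python 3.11.15, numpy 2.4.6 and scipy 1.17.1, as whole numbers of reads, length and total: 567 of 1123 genes searched gave one eye total, and the next most common came from 13. Of 13990 names searched, 13980 gave whole reads within the printed rounding. These are the smallest that fit, and if the true reads are a multiple of them the intervals (Clopper-Pearson, 95%) are too wide. The intervals cover counting error only, and they are too narrow where reads, which lack molecular identifiers, are copies of one molecule. The procedure was tested on simulated data.

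Ratios are log2((eye + 0.1) / (retina + 0.1)) among the 13259 genes with at least 1 RPKM in either library, called at 2-fold. Adding 0.1 understates the change of low genes. Fold values of named genes are without the added 0.1. With 1 column per tissue there was no test. Members and lists were chosen with earlier results of these data known. Every member could be named; of other lists, the most abundant, the called and those acting with a member. Copies were counted in a RefSeq table of GRCr8, whose build differs from rn4, so it gives names only. Psmc3ip, whose symbol goes on after the number, is no member, and Psma8, Psmb11 and Psmg3 were not analysed here. Sequences are RefSeq's. Some genes that the lists took are not reported here.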

Additional observations from a re-analysis of the deposited data

How the results depend on the processing

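No paired analysis was possible because each tissue had 1 column of values, with no column per technical replicate, so leaving out a replicate could not be run either. Directions rest on the scaling. Of 41 members, 35 were higher in eye as reported, 38 with totals without the lens genes and 12 with equal summed values. The shares of all genes higher in eye were 49.3%, 56.7% and 23.8%. A trimmed mean and the median ratio each gave 36 members, against 49.9% and 50.3%. The number of members at least 2-fold higher, 2 as reported, was 4 with totals without the lens genes and 0 with equal summed values. The shares of all genes were 17.8%, 20.6% and 10.6%. At a fold of 1.5 the number was 14, against 26.6% of all genes. At a fold of 4 it was 0, with no share of all genes beside it. Over members without listed copies it was 0 at 2-fold, against 17.8% of all genes. This alternative was added after the data were seen. The count lower stayed at 0 in each. With totals without the lens genes the median log2 ratios were 0.55 for all members, 0.84 for alpha, 0.60 for beta, 0.38 for ATPase, 0.42 for non-ATPase, 1.00 for activator and 0.55 for chaperone genes. With equal summed values they were -0.23, 0.049, -0.19, -0.40, -0.37, 0.23 and -0.23 in the same order. Both follow from how a scaling is built, as it moves log2 ratios by 0.15 and -0.64 before 0.1 is added. With 1 added to each value the activator median was 0.71. The median of members relative to all tested genes stayed between 0.39 and 0.45 under all alternatives run for it. Scaling by a trimmed mean or by the median ratio moved log2 ratios by 0.01 and 0.02. Psme2, Psmd10 and Psmg4 had the fewest recovered reads in eye, 107, 142 and 264. These are the smallest that fit, so the true depth may be higher.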
